A study of Mus musculus with 16 samples.

Results

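A set of 10 genes of the vessel wall was examined, made up of 7 transcription factors of endothelial cells (Sox7, Sox17, Sox18, Klf2, Klf4, Erg and Fli1) and 3 genes of the contacts between those cells (Cldn5, Cdh5 and Pecam1). They were listed by symbol, with earlier results of these data known, and matched to the gene identifiers of the count files, which hold 55359 genes. All 10 were found, and all 10 passed the filter on low counts in every comparison. RNA was measured by sequencing in whole ovary and whole kidney of wild-type CBAF1 female mice, 21 days old. PT-2385, a small molecule that binds HIF-2α (encoded by Epas1) and blocks its pairing with ARNT, was injected intraperitoneally at 7.5 mg/kg each 12 h over 4 days, and controls received its vehicle, 5% DMSO in saline. Every group, controls included, was also given PMSG (5 IU), which drives follicle growth, and 48 h later hCG (5 IU), which stands in for the luteinising hormone surge, and tissue was taken 13 h after hCG. The 4 groups (ovary vehicle, ovary PT-2385, kidney vehicle and kidney PT-2385) had 4 libraries each. Whether a group's 4 libraries stand for 4 animals is not stated in the labels, and p-values therefore measure the spread between libraries, which may be technical. The inhibitor was given to the whole animal, and all kidneys came from mice primed to ovulate, so neither organ is a model of one cell type or of an untreated state.

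Endothelial identity is kept up by a few families of DNA-binding proteins. ERG and FLI1 are ETS factors that hold endothelial genes active, among them the gene of VE-cadherin. SOX7, SOX17 and SOX18 are the SoxF factors, which act in the formation of arteries, veins and lymphatic vessels and can partly replace each other. KLF2 and KLF4 are zinc finger factors that rise under steady blood flow and favour a quiescent, anti-inflammatory and anticoagulant endothelium. Among the contact genes, Cdh5 encodes VE-cadherin of the adherens junction, Cldn5 encodes claudin-5, which seals endothelial tight junctions, and Pecam1 encodes CD31, an adhesion molecule that takes part in the sensing of flow. Vessels of the ovary grow and leak around ovulation, while those of the kidney range from fenestrated glomerular capillaries to the vasa recta.

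The genes lie on 8 chromosomes, at the bounds that the count files give for their models (GRCm39). Of the SoxF genes, Sox7 lies at chr14:64181122-64188181, Sox17 at chr1:4561154-4567577 and Sox18 at chr2:181311629-181313433. Klf2 lies at chr8:73072877-73075500, Klf4 at chr4:55527143-55532466, Erg at chr16:95160028-95387452 and Fli1 at chr9:32333500-32452891. Cldn5 lies at chr16:18595597-18597012, Cdh5 at chr8:104828257-104871143 and Pecam1 at chr11:106545043-106641454. Counts were summed over all exons of a gene, and 0% of the exon bases of any of the 10 were shared with another gene model. The missing strand option in the counting therefore adds no reads of another annotated exon to them. Transcription outside the models was not checked.

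Promoter sequences of the genes bear on the question because the inhibited factor binds a short DNA core and because KLF and ETS factors are members of the set. Of the 10 genes, 4 matched a table of RefSeq promoters by symbol (Klf2, Klf4, Cldn5 and Erg, the last with 3 starts, 6 windows in all). Each window runs from 250 bases before to 50 bases after a transcription start in GRCm38.p6, another build than that of the counts. Klf2 and Cldn5 are shown because they were called in kidney below, and Klf4 as the relative of Klf2 that was not. Capitals mark the KLF motif CACCC and the core of HIF binding, ACGTG with its variant form GCGTG, searched on both strands, so that the KLF motif on the other strand reads GGGTG. Klf2 is at chr8:72318812-72319111 on the plus strand, Klf4 at chr4:55532426-55532725 on the minus strand and Cldn5 at chr16:18776597-18776896 on the plus strand.
Klf2: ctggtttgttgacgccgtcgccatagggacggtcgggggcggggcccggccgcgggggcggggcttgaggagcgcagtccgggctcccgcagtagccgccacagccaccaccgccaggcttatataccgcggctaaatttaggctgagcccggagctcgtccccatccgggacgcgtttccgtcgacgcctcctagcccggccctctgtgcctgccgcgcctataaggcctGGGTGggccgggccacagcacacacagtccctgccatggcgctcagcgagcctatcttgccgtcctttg
Klf4: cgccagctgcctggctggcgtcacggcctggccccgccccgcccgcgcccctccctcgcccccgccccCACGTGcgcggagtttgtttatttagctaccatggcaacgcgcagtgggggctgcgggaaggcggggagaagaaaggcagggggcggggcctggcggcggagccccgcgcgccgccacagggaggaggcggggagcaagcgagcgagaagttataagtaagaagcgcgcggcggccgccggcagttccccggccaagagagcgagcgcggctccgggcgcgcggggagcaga
Cldn5: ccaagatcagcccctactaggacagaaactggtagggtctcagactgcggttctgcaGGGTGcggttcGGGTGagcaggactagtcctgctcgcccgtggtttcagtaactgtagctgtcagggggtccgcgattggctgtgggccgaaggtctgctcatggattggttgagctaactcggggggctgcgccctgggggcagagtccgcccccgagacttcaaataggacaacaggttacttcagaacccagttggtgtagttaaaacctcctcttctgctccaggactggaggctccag

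The Klf2 window held 1 KLF motif and 0 HIF cores, and the Cldn5 window 2 KLF motifs and 0 HIF cores. Klf4 held 0 KLF motifs and 2 HIF core matches, which are the 2 strands of a single palindrome. At the 3 Erg starts the KLF motif was present 1, 0 and 1 times and the HIF core 0, 0 and 1 times. Among all 32851 windows of this length in the table, 57.5% held the KLF motif and 43.8% a HIF core, so neither is rare. The ETS core GGAA (in 96% of windows) was found 1 time in Klf2, 2 times in Klf4 and 0 times in Cldn5, and the SOX motif ACAAT (in 31%) was found only in 1 of the Erg windows. A match is a description of the letters, and a lack of one says only that the letters are not in this window.

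Libraries held between 12.7 and 43.3 M assigned read pairs (M, 1000000), the least in kidney PT-2385 replicate 2 and the most in kidney PT-2385 replicate 3, whose file name carries another flow-cell code. The name of 1 other file, that for replicate 3 of ovary vehicle, has the number 5 in place of 3, and the label's number was used. Ovary vehicle replicate 3 stood apart in 5 nuclear noncoding RNAs (Malat1, Neat1, Xist, Kcnq1ot1 and Meg3), which summed to 1366 CPM (counts per 1000000) there and to 2370 to 3843 CPM in the other ovaries. Organ identity was clear: Foxl2 of granulosa cells and Zp3 of the oocyte had 0 counts in the kidneys, and Lrp2 of the proximal tubule and Umod of the loop of Henle had medians of 2255 and 1575 CPM in kidney vehicle. Ovary vehicle replicate 1 held 4.109 CPM of Umod against 0.0336 CPM or less in the other vehicle ovaries. Ovary RNA was isolated on columns and kidney RNA with Trizol, so organ and isolation cannot be told apart. In a whole organ, fewer endothelial cells and less RNA per cell cannot be told apart either, and this holds for every level below.

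Levels between genes were compared per transcript length, as TPM (transcripts per 1000000, from the counts and the summed exon length). In ovary with vehicle the order was Cdh5 (150.6 ± 1.66 TPM, SD, n = 4), Pecam1 (86.0 ± 9.81), Klf2 (72.8 ± 12.9), Cldn5 (56.1 ± 10.6), Sox18 (52.4 ± 10.5), Erg (21.8 ± 5.96), Klf4 (18.5 ± 1.06), Fli1 (15.4 ± 1.51), Sox7 (5.51 ± 1.26) and Sox17 (4.17 ± 0.492). Library ranges of neighbours overlapped, except that Cdh5 stood clear above Pecam1, Sox18 above Erg and Fli1 above Sox7. In kidney with vehicle Pecam1 (45.9 ± 2.89 TPM) and Cdh5 (38.9 ± 2.86) led with overlapping ranges, followed by Klf2 (29.4 ± 2.32), Cldn5 (20.5 ± 0.362) and Sox18 (18.3 ± 1.07), each clear of the next. Erg (11.02 ± 1.117 TPM), Sox17 (10.6 ± 0.481) and Klf4 (9.999 ± 0.983) overlapped one another, above Fli1 (8.77 ± 0.447) and Sox7 (3.29 ± 0.288). Klf2 thus had the highest mean of the 7 transcription factors in both organs with vehicle. In ovary its range (53.8 to 81.1 TPM) overlapped that of Sox18 (41.2 to 66.5 TPM), so the 2 were not separated there. Sox17, last in ovary with a range that overlapped that of Sox7, stood level with Erg and Klf4 in kidney.

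**Figure D1:**
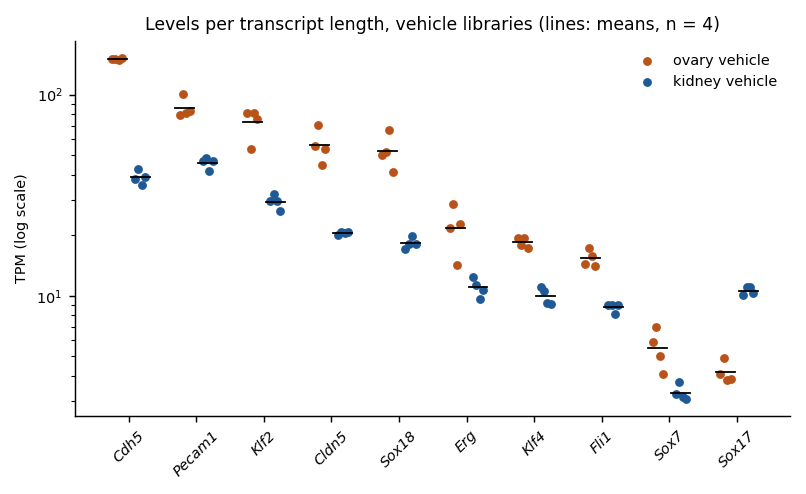
Level per transcript length (TPM, log axis) of the 10 genes in the vehicle libraries, ordered by the ovary mean; points are libraries and lines are means of 4. All genes but Sox17 have a lower mean in kidney, where Sox17 is at 10.6 TPM against 4.17 TPM in ovary.

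Vehicle ovaries and vehicle kidneys were then compared by the quasi-likelihood test of edgeR, with p-values adjusted by Benjamini-Hochberg over all 18923 genes tested and called under 0.05. Of the 10 genes, 8 were called higher in ovary and 1 lower. Between these organs most genes differ: 40.9% of all genes were called higher and 40.7% lower. Cdh5 differed most on the higher side, at 210.5 ± 4.41 CPM in ovary and 77.5 ± 5.01 CPM in kidney (SD, n = 4; log2 difference 1.44, SE 0.0688, adjusted p = 3.37e-10, edgeR). Sox18 (log2 difference 1.01), Cldn5 (0.94) and Klf2 (0.80) followed, and Erg (0.47), Pecam1 (0.39), Klf4 (0.37) and Fli1 (0.30) differed less. Libraries of the organs stood clear of each other on the higher side for 7 of the 10 genes and on the lower side for 1, against 38.8% of all genes on each side. They overlapped for Erg among these 8, and its call was lost without kidney vehicle replicate 3 (adjusted p = 0.0645, edgeR).

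Sox17, the SoxF factor known for arterial endothelium, went the other way. It measured 5.97 ± 0.706 CPM in vehicle ovary and 21.7 ± 1.47 CPM in vehicle kidney (n = 4; log2 difference −1.86, SE 0.105, adjusted p = 1.84e-09, edgeR), and no ovary library reached a kidney one. Sox7 was not called (log2 difference 0.23, SE 0.160, adjusted p = 0.198, edgeR), although it was without ovary vehicle replicate 4. Relative to Cdh5 in the same library, Sox17 stood at 2.84 ± 0.341% of the Cdh5 CPM in vehicle ovary and at 28.1 ± 2.40% in vehicle kidney (n = 4), and Pecam1 at 59.1 ± 6.87% and 122.2 ± 3.84%. These ratios describe levels in CPM of the same gene pair and were not tested between organs.

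In kidney 4 of the genes rose with PT-2385. Klf2, Sox7, Sox18 and Cldn5 reached 1.20 to 1.47 times their vehicle level, and the other 6 genes, Cdh5 and Pecam1 among them, were not called. Thus 4 of 10 were called higher and 0 lower, where 1.83% of the 17763 genes tested in kidney were called higher and 3.7% lower (edgeR). In the same 4 genes all PT-2385 kidneys lay above all vehicle kidneys, against 5.37% of all genes. All 10 log2 fold changes were above 0, against 51.5% of all genes, and their median was 0.21 against 0.0066 for all genes. At an unadjusted p under 0.05, 6 of the 10 passed, against 23.1% of all genes. Since the 10 genes were chosen with earlier results of these data known, these shares describe the set and do not test it.

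Klf2, the flow-induced factor, had the smallest p of the set. Its CPM in kidney replicates 1 to 4 (TMM scaled within the organ, as are the CPM of single genes below) were 24.3, 26.9, 26.2 and 23.0 in the vehicle group, against 38.5, 32.7, 37.3 and 31.4 in the PT-2385 group. Every PT-2385 kidney lay above every vehicle kidney. The means were 25.1 ± 1.78 and 35.0 ± 3.48 CPM (SD, n = 4), a rise of 1.40-fold (log2 fold change 0.49 ± 0.0743 SE, adjusted p = 0.00406 by edgeR).

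Of the SoxF factors, Sox18, which acts in vascular and lymphatic development, measured 12.4, 13.2, 15.3 and 13.8 CPM with vehicle and 19.1, 16.01, 22.7 and 19.8 CPM with PT-2385. Its groups did not overlap, with PT-2385 replicate 2 closest to the vehicle kidneys and replicate 3 farthest above them (13.7 ± 1.22 to 19.4 ± 2.73 CPM, or 1.44 times the vehicle mean, log2 fold change 0.52 ± 0.0949 SE, adjusted p = 0.00702 by edgeR). Sox7 measured 4.76, 5.55, 4.94 and 4.78 CPM with vehicle and 6.88, 6.44, 8.20 and 7.52 CPM with PT-2385. Again all PT-2385 kidneys lay above all vehicle ones, and replicates 2 and 3 were the lowest and the highest of the PT-2385 group. Sox7 had the largest fold of the set (5.01 ± 0.369 to 7.26 ± 0.770 CPM, or 1.47 times the vehicle mean, log2 fold change 0.55 ± 0.109 SE, adjusted p = 0.0104 by edgeR). Sox17 was not called. It measured 18.5, 20.4, 21.7 and 19.8 CPM with vehicle and 21.2, 20.7, 27.0 and 28.0 CPM with PT-2385, so PT-2385 replicates 3 and 4 stood above the vehicle range and replicates 1 and 2 within it (log2 fold change 0.29 ± 0.0940 SE, adjusted p = 0.0834 by edgeR).

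Cldn5, the claudin of endothelial tight junctions, measured 12.7, 13.3, 13.9 and 13.9 CPM in vehicle kidneys and 15.9, 16.2, 15.7 and 16.6 CPM in PT-2385 kidneys. Both groups were tight and did not overlap (13.4 ± 0.603 to 16.1 ± 0.384 CPM, or 1.20 times the vehicle mean, log2 fold change 0.26 ± 0.0679 SE, adjusted p = 0.0357 by edgeR). The other contact genes were not called. Cdh5 measured 68.1, 77.2, 68.4 and 73.0 CPM with vehicle and 74.0, 80.5, 78.2 and 80.5 CPM with PT-2385, and PT-2385 replicate 1 lay within the vehicle range (log2 fold change 0.13 ± 0.0525 SE, adjusted p = 0.160 by edgeR). Pecam1 measured 85.9, 90.7, 82.6 and 90.9 CPM with vehicle and 86.8, 85.3, 93.7 and 87.9 CPM with PT-2385, and the groups overlapped almost fully (log2 fold change 0.02 ± 0.0494 SE, adjusted p = 0.882 by edgeR). The ETS factors Erg (0.06, SE 0.0687) and Fli1 (0.13, SE 0.0699) and the factor Klf4 (0.16, SE 0.0823) were not called either, with adjusted p of 0.626, 0.281 and 0.259 (edgeR).

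The kidney calls differed in how far they rested on single libraries. Klf2 and Sox18 were called in all settings tried. Without PT-2385 replicate 3, the deepest library, 2 of the 10 genes were called higher, since Sox7 (log2 fold change 0.48, adjusted p = 0.0602) and Cldn5 (0.28, adjusted p = 0.0925) missed the threshold and the count over all genes was 240 in place of 982 (edgeR). Cldn5 also missed it without vehicle replicate 1 or 2 or PT-2385 replicate 1, 2 or 4, with adjusted p up to 0.112, while its log2 fold change stayed between 0.23 and 0.28.

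**Figure D2:**
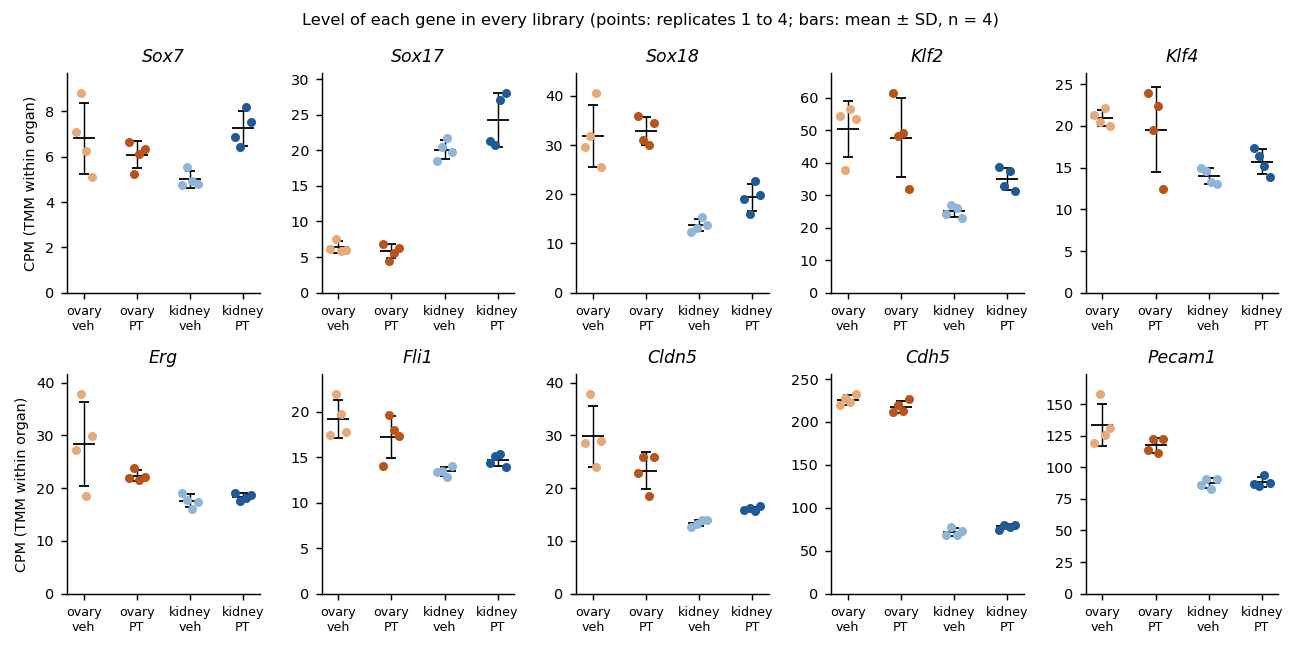
CPM of each gene in all 16 libraries (TMM scaled within each organ; each panel has its own axis from 0); points are replicates 1 to 4 from left to right and bars are mean ± SD. In kidney the points of Sox7, Sox18, Klf2 and Cldn5 do not overlap between vehicle (veh) and PT-2385 (PT), and in ovary all genes overlap.

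Cdh5 served as a yardstick within the endothelium of the same library. In kidney it was not called, but its mean was itself higher with PT-2385 (log2 fold change 0.13, unadjusted p = 0.0286, edgeR). Ratios to Cdh5 there are shifted to the lower side by that rise. Relative to Cdh5, Sox7 went from 6.99 ± 0.313% to 9.28 ± 1.02% of the Cdh5 CPM (n = 4; log2 ratio 0.40) and Klf2 from 35.1 ± 2.82% to 44.9 ± 6.13% (0.35), and in both the groups did not overlap. Among all 17763 genes tested in kidney, 0.591% stood clear on the higher side when divided by Cdh5 and 17.8% on the lower side. Sox18 (log2 ratio 0.37) overlapped because PT-2385 replicate 2 lay within the vehicle range, and Cldn5 (0.13) and Sox17 (0.13) overlapped as well. Pecam1 had a ratio of 122.2 ± 3.84% with vehicle and 113.0 ± 6.61% with PT-2385 (−0.11), and Erg, Fli1 and Klf4 lay between −0.07 and 0.04. In these means Klf2, Sox7 and Sox18 stood above the contact genes and the ETS factors, a difference within the set that was not tested.

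**Figure D3:**
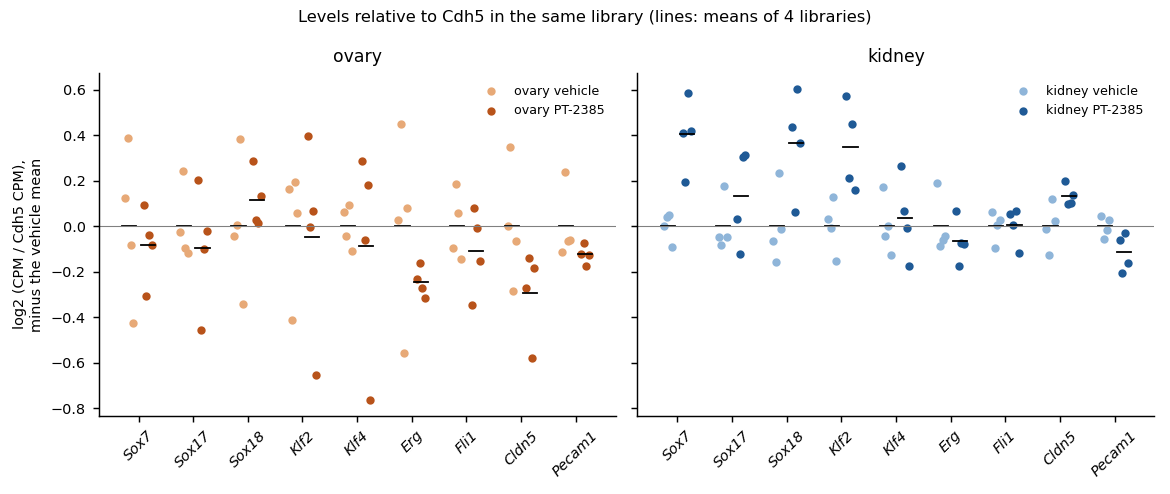
Log2 ratio of each gene's CPM to that of Cdh5 in the same library, minus the vehicle mean, in ovary (left) and kidney (right); points are libraries and lines are means of 4. In kidney the PT-2385 means of Sox7, Sox18 and Klf2 are at 0.40, 0.37 and 0.35, and in ovary every gene overlaps between groups.

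Other endothelial genes were read from lists chosen with earlier results of these data known. Of 30 endothelial surface and signalling genes, 3 rose in kidney and 0 fell, 25 had a log2 fold change above 0, and the median was 0.13 (13 at an unadjusted p under 0.05). Among all genes tested in kidney, 1.83% were called higher, 3.7% lower, 51.5% lay above 0 and 23.1% passed an unadjusted p under 0.05 (edgeR). S1pr1, the sphingosine-1-phosphate receptor that stabilises endothelial junctions, measured 12.8, 17.2, 15.6 and 16.1 CPM with vehicle and 21.5, 18.1, 22.1 and 21.1 CPM with PT-2385, with no overlap (log2 fold change 0.44 ± 0.0886 SE, adjusted p = 0.0119 by edgeR). Acvrl1, the receptor ALK1 for BMP9, rose from 28.5 ± 1.31 to 33.9 ± 2.46 CPM and Arhgef15, an endothelial guanine nucleotide exchange factor, from 31.9 ± 1.49 to 37.6 ± 1.77 CPM (log2 fold changes 0.25 and 0.24, adjusted p = 0.0323 and 0.0244, edgeR). Aplnr, the apelin receptor, had a log2 fold change of 0.31 and an adjusted p of 0.0523 (edgeR; called by DESeq2 at 0.0325). With 1 library left out, the call of Acvrl1 was lost without vehicle replicate 1 or 2 or PT-2385 replicate 2, 3 or 4 (adjusted p up to 0.118) and that of Arhgef15 without vehicle replicate 2 or 4 or PT-2385 replicate 1 or 3 (up to 0.112, edgeR). S1pr1 lost its call without PT-2385 replicate 3 (adjusted p = 0.0602, edgeR).

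Among 24 tested of 25 other transcription regulators of endothelium, 1 rose and 0 fell in kidney, 20 were above 0 and the median was 0.11 (4 at an unadjusted p under 0.05). The gene that rose was Foxc2, a forkhead factor of vessels and lymphatic valves that podocytes also make (10.6 ± 0.496 to 13.3 ± 1.40 CPM, log2 fold change 0.35, adjusted p = 0.0281, edgeR). Hey1 and Hey2, targets of Notch in arterial endothelium, had log2 fold changes of 0.62 and 0.37 and were not called (adjusted p = 0.0682 and 0.124, edgeR). Of 37 tested of 38 other junction and adhesion genes, 1 rose and 1 fell, 29 were above 0 and the median was 0.077 (17 at an unadjusted p under 0.05). Calls in this list were near the share of all genes called in kidney, 5.53% (edgeR). Ccm2l, which takes part in cardiovascular signalling through the CCM complex, rose (15.1 ± 0.784 to 18.5 ± 0.905 CPM, log2 fold change 0.29, adjusted p = 0.0251, edgeR), and Ocln, the tight junction protein occludin that tubule epithelium also makes, fell by 0.23 on the log2 scale (49.7 ± 3.94 to 42.4 ± 1.69 CPM, adjusted p = 0.0382, edgeR). The call of Foxc2 was lost without vehicle replicate 2 or PT-2385 replicate 3 or 4 (adjusted p up to 0.134) and that of Ccm2l without vehicle replicate 2 or PT-2385 replicate 1 or 3 (up to 0.0907, edgeR). Ocln lost its call without vehicle replicate 1 or 2 or any 1 of the PT-2385 kidneys (adjusted p up to 0.124, edgeR).

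Relatives of Klf2 and genes of acute stimulation gave no calls in kidney with edgeR, where 23.1% of all genes passed an unadjusted p under 0.05. Of the 13 tested of 15 other KLF family genes, 0 were called (edgeR; 3 at an unadjusted p under 0.05), 6 were above 0 and 7 below, with a median of −0.08. Klf11 had the lowest value (−0.41, adjusted p = 0.136, edgeR). Of 21 tested of 22 immediate early genes, which respond to handling and stimulation within minutes, 0 were called (6 at an unadjusted p under 0.05) and the median was −0.10. Fos (−0.64) and Dusp1 (−0.44) were among those below 0, with adjusted p of 0.0822 and 0.0969 (edgeR). DESeq2 called Klf11 (adjusted p = 0.0389) and Dusp1 (0.00512) lower, limma-voom called Dusp1 (0.0405), and edgeR with no filter called all 3 (9.3e-05 to 0.0083). Fos was called without vehicle replicate 1 or PT-2385 replicate 2, and Dusp1 without vehicle replicate 2 or PT-2385 replicate 2. Of the same immediate early list, DESeq2 called Zfp36 lower (−0.25, adjusted p = 0.0266) and Jund higher (0.25, adjusted p = 0.0434). Both were also called by edgeR with no filter (0.00386 and 0.00096). Zfp36 was called without vehicle replicate 1 or PT-2385 replicate 2, and Jund without vehicle replicate 3 (0.0109, edgeR).

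Some markers of other cells also passed the test in kidney, and their part in the endothelial result was not tested. Over all genes tested there, 1.83% were called higher and 3.7% lower, and 23.1% passed an unadjusted p under 0.05 (edgeR). All 6 podocyte markers were above 0 and 2 rose (Wt1, log2 fold change 0.27, and Synpo, 0.28; adjusted p = 0.0251 and 0.0392, edgeR), and their summed level ran from 612.2 to 742.6 CPM with vehicle and from 748.9 to 871.2 CPM with PT-2385. Of 10 pericyte and smooth muscle markers 2 rose (Myh11, 0.26, and Des, 0.30), with sums of 492.2 to 525.3 CPM and 544.1 to 587.2 CPM. Of 7 proximal tubule markers 2 fell (Aqp1, −0.37, and Cubn, −0.44) and 6 were below 0, with overlapping sums of 20260 to 22110 CPM and 18900 to 20990 CPM. Of 11 tested leukocyte markers 1 fell (Csf1r, −0.27), and sums were 118.5 to 135.8 CPM and 105.8 to 121 CPM. Summed nuclear noncoding RNAs lay at 3080 to 3359 CPM with vehicle and 3487 to 3634 CPM with PT-2385. The summed level of the 10 endothelial genes was 270.2 to 292.1 CPM and 308 to 334.2 CPM. Sums of the wider endothelial lists overlapped between the kidney groups. Surface and signalling genes summed to 1392 to 1488 CPM with vehicle and 1449 to 1632 CPM with PT-2385. For the other transcription regulators these were 759.8 to 815 CPM and 809.1 to 855.5 CPM. Junction and adhesion genes lay at 3144 to 3350 CPM and 3181 to 3365 CPM. All these sums are CPM without TMM scaling, unlike the CPM of single genes. The podocyte groups were apart on this scale by a narrow gap (742.6 against 748.9 CPM). Whether that gap remains with TMM scaling was not tested, so no separation is read from it. The sums of the 10 endothelial genes, the pericyte and smooth muscle markers and the nuclear RNAs, on the unscaled CPM, stood clear of their vehicle range on the higher side. So did 11 markers of oviduct and surface epithelium (473.9 to 488.9 CPM and 502.4 to 531.2 CPM, 0 called by edgeR, 4 at an unadjusted p under 0.05). That list holds epithelial keratins and Pax8, which kidney tubules also make. Whether its gap remains with TMM scaling was not tested, so no separation is read from it either. Lymphatic markers (7 genes, 0 called by edgeR, 1 at an unadjusted p under 0.05) summed to 71.7 to 81.7 CPM and 77.3 to 78.5 CPM. Lyve1, a defining lymphatic marker, was at 3.75 CPM or less in every kidney library. All 6 adipocyte markers had log2 fold changes above 0 (median 0.36, 0 called by edgeR, 1 at an unadjusted p under 0.05). Their sums overlapped, at 115.7 to 182 CPM with vehicle and 107.9 to 366.8 CPM with PT-2385. PT-2385 replicates 1 and 2 were the highest (366.8 and 250.4 CPM), and replicates 3 and 4 held 107.9 and 144.6 CPM.

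**Figure D4:**
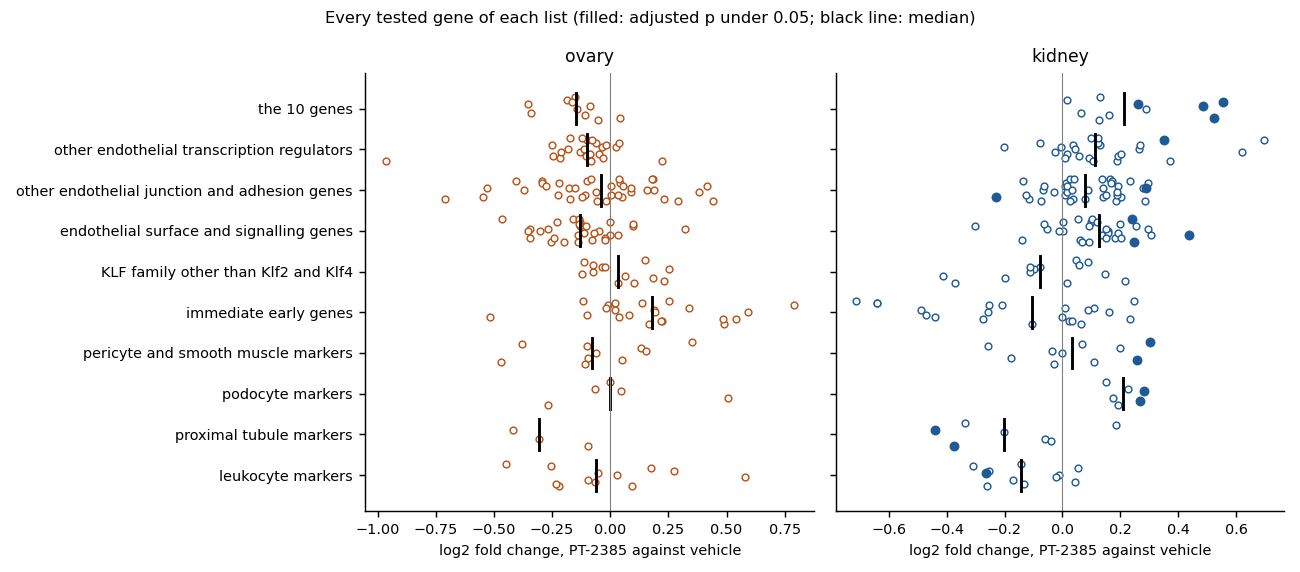
Log2 fold change with PT-2385 of every tested gene in the set and in 9 lists, in ovary (left) and kidney (right); filled points passed an adjusted p of 0.05 (edgeR), black lines are medians, and the 2 panels have separate axes. In kidney the medians of the set and of the 3 endothelial lists lie above 0 (0.21, 0.11, 0.077 and 0.13), and in ovary below 0 (−0.15, −0.10, −0.04 and −0.13) with no filled point.

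In ovary 0 of the 10 genes were called (edgeR), where 0.0497% of the 18125 genes tested were called in all and 0.0441% called lower. DESeq2 and limma-voom called 0 of the 10 as well. At an unadjusted p under 0.05, 2 of the 10 passed, Cldn5 and Pecam1, both lower with PT-2385, against 7.45% of all genes on the lower side. Log2 fold changes were below 0 for 9 of the 10, against 50.8% of all genes, with a median of −0.15 against −0.0031. In all 10 genes the libraries of both groups overlapped, while they did not in 6.95% of all genes.

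Cldn5 measured 28.7, 37.8, 23.9 and 28.9 CPM with vehicle and 22.8, 26.0, 18.6 and 26.0 CPM with PT-2385 in ovary. Vehicle replicate 2 was the highest and vehicle replicate 3 fell among the PT-2385 ovaries (log2 fold change −0.35 ± 0.141 SE, adjusted p = 0.330 by edgeR). Pecam1 measured 119.4, 157.8, 125.6 and 131.0 CPM with vehicle and 113.9, 122.5, 111.0 and 122.2 CPM with PT-2385, again with vehicle replicate 2 on top (−0.18, SE 0.0850, adjusted p = 0.378, edgeR). Erg, the main ETS factor of the set by level, measured 27.3, 37.8, 18.5 and 29.9 CPM with vehicle and 21.9, 23.9, 21.5 and 22.2 CPM with PT-2385. Vehicle replicate 3, the library with few nuclear noncoding RNAs, was the lowest of all 8 ovaries for Erg (log2 fold change −0.34 ± 0.173 SE, adjusted p = 0.428 by edgeR). Without that library Erg had a log2 fold change of −0.50 and was called (adjusted p = 0.0242, edgeR), 1 of the 10, and the count over all genes went from 9 to 1090.

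The factors Klf2 and Klf4 were the most variable within the ovary PT-2385 group. Klf2 measured 54.2, 37.7, 56.4 and 53.3 CPM with vehicle and 61.3, 48.2, 49.2 and 31.8 CPM with PT-2385, so the lowest ovary was PT-2385 replicate 4 and the next lowest vehicle replicate 2 (log2 fold change −0.09 ± 0.194 SE, adjusted p = 0.886 by edgeR). Klf4 measured 21.3, 20.5, 22.1 and 19.97 CPM with vehicle and 23.9, 19.5, 22.4 and 12.4 CPM with PT-2385, with PT-2385 replicate 4 far below the rest (−0.11, SE 0.164, adjusted p = 0.816, edgeR). Without PT-2385 replicate 4 both were slightly above 0, at 0.060 and 0.057. The 22 immediate early genes summed to their lowest levels in the libraries lowest for Klf2. These sums were 1607 CPM in PT-2385 replicate 4 and 1634 CPM in vehicle replicate 2, against 1848 to 2227 CPM in the other 6 ovaries. Klf4 was not low in vehicle replicate 2, at 20.5 CPM. The part of the immediate early genes in the levels of Klf2 and Klf4 was not tested.

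Cdh5 was the steadiest gene in ovary, at 219.6, 227.8, 223.5 and 232.4 CPM with vehicle and 211.1, 219.4, 213.0 and 226.7 CPM with PT-2385. The ranges overlapped (log2 fold change −0.05 ± 0.0607 SE, adjusted p = 0.745 by edgeR). Among the SoxF factors Sox18 was the gene above 0 (31.9 ± 6.35 and 32.9 ± 2.77 CPM, log2 fold change 0.04, SE 0.123), and it was below 0 without vehicle replicate 4 (−0.05). Sox7 (−0.16, SE 0.160), Sox17 (−0.14, SE 0.147) and Fli1 (−0.15, SE 0.109) lay below 0, with adjusted p of 0.697, 0.709 and 0.568 (edgeR). Relative to Cdh5 all 9 other genes overlapped between groups in ovary, with log2 ratios from −0.29 (Cldn5) to 0.12 (Sox18), where 4.9% of all genes stood clear on the higher side and 2.07% on the lower side.

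Summed over the 10 genes, ovaries held 533.4 to 607.4 CPM with vehicle and 478 to 516.9 CPM with PT-2385, so the sum stood clear on the lower side although no single gene did. Of these sums Cdh5 and Pecam1 make up the larger share. The sums of the 3 wider endothelial lists overlapped between the ovary groups. Over all genes tested in ovary, 0.0497% were called and 13.2% passed an unadjusted p under 0.05 (edgeR). Among markers of other cells that make some of these genes, 0 were called in ovary (edgeR): 7 lymphatic markers (2 at an unadjusted p under 0.05) summed to 313.7 to 346.2 CPM and 280.5 to 328 CPM, and 12 tested of 13 leukocyte markers (2 at an unadjusted p under 0.05) to 98.6 to 138.6 CPM and 94.7 to 122.2 CPM. Of 7 luteal and theca markers 3 passed an unadjusted p under 0.05, and their sums were 9829 to 17030 CPM with vehicle and 9752 to 10900 CPM with PT-2385. For 8 granulosa markers (2 at an unadjusted p under 0.05) these were 2013 to 2256 CPM and 1987 to 2845 CPM. Distal and collecting duct markers, 2 tested of 7, summed to 22.7 to 31.6 CPM and 32.7 to 34.5 CPM, clear on the higher side. The part of these cells in the endothelial sums was not tested.

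The other endothelial genes of the ovary gave 0 calls (edgeR) in each list, and 13.2% of all genes tested in ovary passed an unadjusted p under 0.05. Of 23 tested transcription regulators 20 were below 0 (median −0.10; 4 at an unadjusted p under 0.05), led by Elk3, an ETS repressor (log2 fold change −0.25, adjusted p = 0.173, edgeR). Tcf15, a factor of capillary endothelium, had the widest difference of that list (−0.97, SE 0.326, adjusted p = 0.250, edgeR). Of 30 surface and signalling genes 25 were below 0 (median −0.13; 8 at an unadjusted p under 0.05), led by Tie1, an orphan receptor of the angiopoietin system (−0.35), while Thbd, the anticoagulant thrombomodulin and a known KLF2 target, was at 0.32. The 38 junction and adhesion genes were split, 20 below 0 and 18 above (median −0.04; 12 at an unadjusted p under 0.05), with Jam2, a junctional adhesion molecule, at 0.38 and Jup, plakoglobin, at −0.28. DESeq2 called Jam2 higher (adjusted p = 0.0371) and Amotl2, an angiomotin-like protein, lower (0.0487). With no filter edgeR called Jam2 (0.0063), Ptprb, the phosphatase VE-PTP (0.0164), and Tie1 (0.0202). Without vehicle replicate 3 it called Ptprb, Tie1, Tek and Elk3 lower (adjusted p = 0.0275, 0.0325, 0.0303 and 0.0467, edgeR).

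The difference between the organs' responses was tested directly, as the log2 fold change in ovary minus that in kidney over all 16 libraries. Of the 10 genes 0 were called (edgeR), where 0.19% of 19977 genes were called in all and 0.03% called lower. At an unadjusted p under 0.05, 5 passed, all lower, against 5.63% of all genes on the lower side. All 10 differences were below 0, against 51.1% of all genes, with a median of −0.40 against −0.0060. The 2 within-organ responses share no library, but their difference is built from both, so these signs repeat the values above.

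Sox7 had the widest difference (−0.70, SE 0.1995, adjusted p = 0.160, edgeR), followed by Cldn5 (−0.59, SE 0.161, adjusted p = 0.130). Klf2 (−0.56, SE 0.235, adjusted p = 0.366), Sox18 (−0.46, SE 0.178, adjusted p = 0.308) and Sox17 (−0.41, SE 0.178, adjusted p = 0.365) were the others with an unadjusted p under 0.05 (edgeR). Erg (−0.38), Fli1 (−0.26), Klf4 (−0.26), Pecam1 (−0.18) and Cdh5 (−0.16) had smaller differences. Standard errors ran from 0.0793 (Cdh5) to 0.235 (Klf2), and a missed threshold does not show that the organs respond alike. DESeq2 called Sox7 and Cldn5 (adjusted p = 0.0447 and 0.0356), with 304 genes called in all, and limma-voom called 0 of the 10. Without ovary vehicle replicate 3, Sox7, Erg and Cldn5 were called lower (adjusted p = 0.0457, 0.0197 and 0.0142, edgeR), with 813 genes called in all.

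In the wider lists the difference between organs gave 0 calls (edgeR), and 12% of all genes passed an unadjusted p under 0.05. S1pr1 (−0.56, SE 0.133, adjusted p = 0.0834) and Acvrl1 (−0.48, SE 0.119, adjusted p = 0.0884, edgeR) came closest. Of the surface and signalling genes 26 of 30 were below 0 and 13 passed an unadjusted p under 0.05, and of the transcription regulators 21 of 24 were below 0 and 6 passed. The junction and adhesion genes were below 0 in 22 of 38 cases, with 13 at an unadjusted p under 0.05, and Ccm2l led them (−0.81, SE 0.215, adjusted p = 0.127, edgeR). S1pr1, Acvrl1, Tie1, Ccm2l and Pcdh12, a protocadherin of endothelium, were called lower by DESeq2 (adjusted p = 0.0100 to 0.037), by edgeR with no filter (0.0085 to 0.0257) and without ovary vehicle replicate 3 (0.00964 to 0.0377). Elk3 was called by DESeq2 and without that library.

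**Figure D5:**
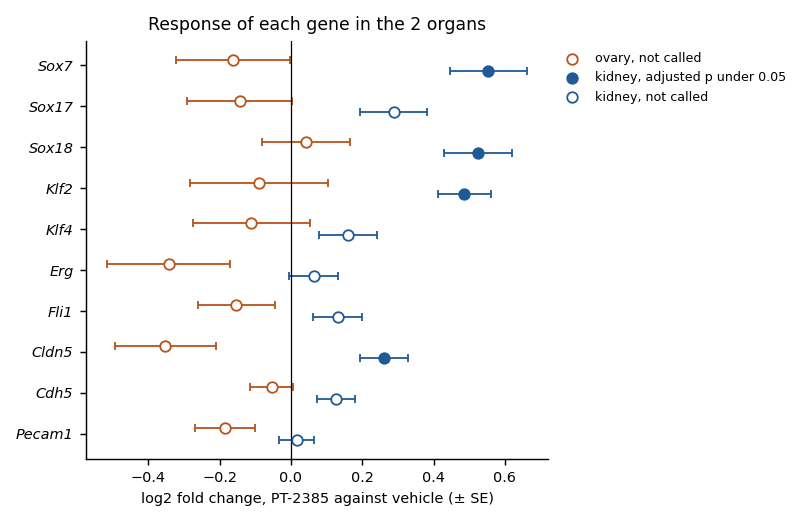
Log2 fold change with PT-2385 against vehicle (± SE of the edgeR fit, 4 against 4 libraries) of each gene in ovary (orange) and kidney (blue); filled points passed an adjusted p of 0.05. Sox7, Sox18, Klf2 and Cldn5 are filled in kidney, between 0.26 and 0.55, and no gene is filled in ovary, where values run from −0.35 to 0.04.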

How the data were processed

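Deposited values are counts of read pairs per gene, made by the authors with featureCounts 2.0.6 over exons with the GENCODE M27 basic annotation and no strand option (per the file headers). FastQC and STAR, with GRCm39 (mm39) as the build, are named in the submitters' processing notes, and their versions are not given in the sources used here. The stranded polyA libraries are described in the labels' protocols. All 16 count columns were used. Depth, 12.7 to 43.3 M pairs (M, 1000000), sets the precision of low genes such as Sox7.

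In R 4.3.3, edgeR 4.0.16 (quasi-likelihood, robust) with limma 3.58.1 was run after TMM scaling on genes that passed filterByExpr (count 10, total 15), each organ alone with 4 against 4 libraries, and all 16 libraries for the difference between organs. P-values were adjusted by Benjamini-Hochberg over all genes tested. Tests were checked on simulated data. Symbols were matched for 94.1% of genes. Sums over marker lists and organ checks are CPM without TMM scaling, and CPM of the vehicle organ comparison were scaled over its 8 libraries. Python 3.11.15, numpy 2.4.6, pandas 2.3.3 and matplotlib 3.10.9 made values and figures.

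Members and lists were chosen with earlier results of these data known. All 10 genes were named in every comparison, with up to 4 genes of smallest p considered in each list that is not of another cell type, organ checks (1 gene of that rule is not reported here), and the 5 genes most like the set in each organ. Markers of other cells are named where called, and Lyve1 and Aqp2 for their levels. Alternatives were RLE scaling, DESeq2 1.42.0, limma-voom, leaving out the filter, requiring 1 CPM in 4 libraries, a replicate block and each library left out.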

Additional observations from a re-analysis of the deposited data

Results flagged for a closer look

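Of 40 sets of 4 libraries (10 genes in 4 groups), 2 held a sample far from the others by Dixon's test at its usual level, and chance flags about 1 set in 20. Both were the same library. Sox17 in ovary vehicle replicate 2 measured 7.598 CPM, above 5.91 to 6.08 CPM in the other vehicle ovaries. Klf2 in the same library measured 37.73 CPM, below 53.3 to 56.4 CPM in the others. The library lay high for one gene and low for the other, and causes were not tested.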

How the results depend on the processing

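Counts of called genes moved with the processing, and the cause was not tested. In ovary, 9 genes were called by edgeR, 323 by DESeq2, 4 by limma-voom, 330 with no filter, and 0 to 1090 with 1 library left out. Of the 10 genes 0 to 1 were called lower in ovary when 1 library was left out. In kidney, 982 were called, 1761 with no filter, and 240 to 1370 with 1 library left out, and 2 to 4 of the 10 genes were then called higher. For the difference between organs, 38 were called, 20 with RLE scaling, 304 by DESeq2 (2 of the 10 genes lower), 12 by limma-voom, 167 with no filter (1 of the 10 lower, Cldn5), and 0 to 813 with 1 library left out (0 to 3 of the 10 lower). Called numbers between vehicle organs stayed within 1.5 times in all settings run. Signs turned only when a library was left out: in ovary Sox18 (−0.04997 to 0.18), Klf2 (−0.23 to 0.060) and Klf4 (−0.22 to 0.057), and in kidney Pecam1 (−0.014 to 0.033, the lowest without PT-2385 replicate 3). None of these was called in that comparison.

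Replicate numbers did not pair vehicle with PT-2385 libraries within an organ. Deviations of same-numbered libraries correlated between −0.064 and 0.0522 in kidney and between −0.172 and 0.236 in ovary (2 of 4 pairs over 0.1). Between ovary and kidney they correlated between 0.0263 and 0.0636 with vehicle and between −0.0283 and 0.061 with PT-2385 (0 of 4 pairs over 0.1 in each). Whether same-numbered organs came from 1 animal was not settled by these small values. With a replicate block, 395 genes were called in ovary, with 1 of the 10 lower (Cldn5, adjusted p = 0.0492, edgeR), and 5 of the 10 were called higher in kidney, Sox17 being added (adjusted p = 0.0425, edgeR). Sox17 was also called with no filter and without PT-2385 replicate 2 (adjusted p = 0.0404, edgeR). Among named genes of the wider lists the replicate block called Ptprb, Mmrn2, Tek and Dusp1 lower in ovary (adjusted p = 0.00267 to 0.0493, edgeR), and in kidney Fos and Zfp36 lower and Aplnr and Emcn higher (0.0173 to 0.0450). For the difference between organs the replicate block gave 52 calls, and 20 within treatment. Sox7, and in ovary also Sox17, had the lowest CPM of the 10 genes, so counting error weighs most on them.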

Other observations

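After group means were removed, the log2 CPM of each gene was set against the mean of the other 9 over the 8 libraries of an organ, as a description over libraries that share depth and tissue make-up. Pearson values in ovary were 0.80 for Pecam1, 0.77 for Cldn5, 0.69 for Sox7 and 0.63 for Erg, and −0.60 for Klf2. In kidney they were 0.84 for Pecam1 and 0.83 for Sox7, and −0.35 for Cldn5 and −0.32 for Klf4. Genes outside the set whose library profile was most like its mean, among those of 2 CPM or more, were Ica1, Ggt5, Lpar6, Csad and Guk1 in ovary (0.981 to 0.995) and Tango2, Zfp3, Wipf2, Tmem161b and Zfp120 in kidney (0.941 to 0.977). In ovary that mean profile was set mostly by vehicle replicate 2, at 0.91, with the other 7 libraries between −0.45 and 0.17.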
